A study of Homo sapiens with 8 samples.

Results

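The SMN complex is the assembly machine of the spliceosomal small nuclear ribonucleoproteins (snRNPs), and 10 genes that encode its subunits were followed here in U251 glioblastoma cells treated with the PRMT5 inhibitor LLY-283. The genes were chosen by name as subunits of the complex, although with earlier results of these data known: SMN1, SMN2, GEMIN2, DDX20 (also called gemin3), GEMIN4, GEMIN5, GEMIN6, GEMIN7, GEMIN8 and STRAP (also called UNRIP). All 10 were found by symbol among the 61906 genes of the table, and all 10 were among the 14478 genes that were expressed highly enough to be tested. The data comprised 8 poly(A)-selected RNAseq libraries of wild-type U251, an established human glioblastoma line, of which 4 came from cultures given DMSO (vehicle) and 4 from cultures given 100 nM LLY-283, both for 24 h. U251 is a single line grown in serum, so the 4 biological replicates of a group are separate cultures of the same cells.

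PRMT5 places symmetric dimethyl groups on arginines in the tails of several Sm proteins, the proteins that form a ring around the small nuclear RNAs. The SMN protein binds such methylated tails through its Tudor domain, and the SMN complex then loads the Sm ring onto the small nuclear RNA in the cytoplasm, after which the particle returns to the nucleus and matures in Cajal bodies. Loss of SMN1 causes spinal muscular atrophy, and the severity of that disease depends on the number of copies of SMN2, a near-identical gene nearby. The question addressed by the comparison was whether the transcripts of this machine moved when the enzyme that modifies its cargo was inhibited.

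Transcript levels are given in TPM (a share of all transcripts in a library, corrected for transcript length). Differences are given as log2FC, the log2 fold change of TPM + 0.1 from vehicle to LLY-283, which understates the change of low genes. They were tested with limma across the 14478 genes that averaged 1 TPM or more, with Benjamini-Hochberg adjustment over all of them, and a gene was called when its adjusted p-value was under 0.05. TPM keeps no read numbers, so library depth is unknown and no counting error can be given. In bulk RNA, fewer cells that express a gene and less RNA of that gene per cell cannot be told apart.

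The line carried the markers of its origin. All 8 glial and glioma markers were detected in every library, and 4 of them were called: GFAP (log2FC -0.25, adjusted p = 8.20e-04, limma), NES (-0.17, adjusted p = 7.31e-04) and SOX2 (-0.27, adjusted p = 3.49e-04) as lower and CD44 (0.11, adjusted p = 0.0168) as higher, where 17.6% of all genes tested were called as lower and 8.61% as higher. The call of CD44 was lost with quantile normalization, with no filter on low values and without vehicle replicate 1, 2 or 4 or LLY-283 replicate 1. None of the 6 markers of other cells exceeded 0.61 TPM in any library. The target of the drug, PRMT5, stood at 100.0 ± 5.03 TPM with vehicle and 100.4 ± 4.91 TPM with LLY-283. LLY-283 replicate 4 stood apart in its share of transcripts from the mitochondrial genome, 7.19% against 10.61% to 11% in the other LLY-283 libraries and 10.15% to 10.75% in the vehicle libraries, and this library was the highest of its group for the SMN1 and SMN2 sum, GEMIN4, GEMIN5 and STRAP and the lowest for DDX20 and GEMIN2. With the mitochondrial genes left out of every library's total, the same 5 members were called, and the log2FC was 0.26 for the sum and for DDX20, 0.05 for GEMIN4, 0.08 for GEMIN5 and STRAP and -0.07 for GEMIN2. Without this library the log2FC of GEMIN4 was 0.03 and that of GEMIN5 0.05, again not called.

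Of the 10 members, 3 rose and 2 fell with LLY-283 and 5 were not called. SMN1, SMN2 and DDX20 were higher, and GEMIN6 and GEMIN7 were lower. Over all genes tested 26.2% were called, 8.61% as higher and 17.6% as lower, so that 32.9% of all calls were higher. That split moved with the scaling, to 50.7% with quantile normalization, 50.8% with median-of-ratios scaling and 63.0% with the dependence on GC content and length taken out, and the last of these gave 5 higher and 1 lower member. No member changed by more than 1.5-fold, a size that 3.87% of the genes tested both passed and were called for. The groups were free of overlap for 4 members (SMN1, DDX20, GEMIN6 and GEMIN7), against 29.2% of all genes tested. The median log2FC of the members was 0.07, and that of all genes tested was -0.05.

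**Figure D1:**
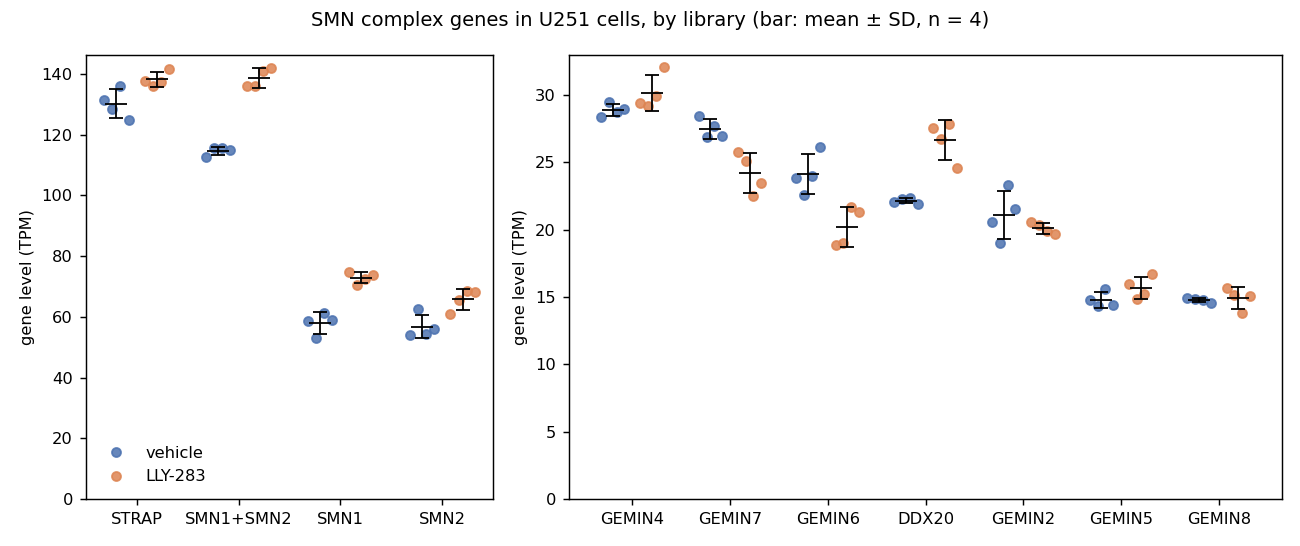
Level of each member in TPM (vertical axes, starting at 0) in the 4 vehicle (blue) and 4 LLY-283 (orange) libraries, with the mean and SD of each group in black. STRAP, SMN1 and SMN2 are on the left with the SMN1 and SMN2 sum, and the gemins and DDX20 are on the right, where DDX20 lies higher and GEMIN6 and GEMIN7 lie lower with LLY-283.

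SMN1 and SMN2 encode the SMN protein itself, the scaffold that gives the complex its name. SMN1 (ENSG00000172062) lies on the plus strand of chromosome 5 at 70925030 to 70953942 of GRCh38, and SMN2 (ENSG00000205571) on the same strand at 70049638 to 70078522. Their canonical transcripts are both 1482 bases long and differ at 2 of the 1482 aligned bases, so nearly all reads of one gene also match the other and RSEM had to divide them.

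SMN1 was listed at 58.72, 53.03, 61.25 and 58.85 TPM in vehicle replicates 1 to 4 and at 74.87, 70.50, 72.40 and 73.85 TPM in LLY-283 replicates 1 to 4. The lowest LLY-283 value lay above the highest vehicle value. Its log2FC was 0.33, with a standard error of 0.046 (adjusted p = 9.29e-04, limma), a 1.26-fold rise.

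SMN2 was listed at 54.11, 62.53, 54.50 and 56.08 TPM with vehicle and at 61.09, 65.42, 68.64 and 68.11 TPM with LLY-283. Here the groups overlapped, because vehicle replicate 2 lay above LLY-283 replicate 1. The log2FC was 0.21, with a standard error of 0.055 (adjusted p = 0.0196, limma). This call was lost without vehicle replicate 1, 3 or 4 or without LLY-283 replicate 3, with adjusted p-values of 0.0543 to 0.0594.

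Added together, SMN1 and SMN2 came to 112.83, 115.56, 115.75 and 114.93 TPM in the vehicle libraries and to 135.96, 135.92, 141.04 and 141.96 TPM in the LLY-283 libraries. The lowest LLY-283 sum lay far above the highest vehicle sum, while the libraries of each group lay within a few TPM of each other. The sum rose 1.21-fold (95% interval 1.16 to 1.26), a log2FC of 0.27, with a standard error of 0.027 (adjusted p = 1.87e-04, limma). The exact permutation test over the 8 libraries (two-sided) gave p = 0.0286, the smallest value that 4 against 4 libraries allow. Groups without overlap always give this value, and 29.2% of all genes tested had such groups.

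The sum varied less between vehicle replicates than either gene listed on its own. In the vehicle libraries the coefficient of variation was 6.02% for SMN1, 6.88% for SMN2 and 1.17% for their sum. In the LLY-283 libraries it was 2.60%, 5.24% and 2.33%, so that the sum and SMN1 varied to a similar degree. Vehicle replicate 2, which had the lowest SMN1 value of its group, had the highest SMN2 value. SMN2 made up 49.5% ± 3.16 of the sum with vehicle and 47.4% ± 1.69 with LLY-283 (SD, n = 4 each), a difference of -2.06 percentage points that was within the spread between libraries (exact permutation test, two-sided, p = 0.429). The share describes how reads were divided by RSEM and does not separate the activity of the genes. Levels per gene also pool all spliced forms of its RNA, so full-length SMN RNA was not measured apart.

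**Figure D2:**
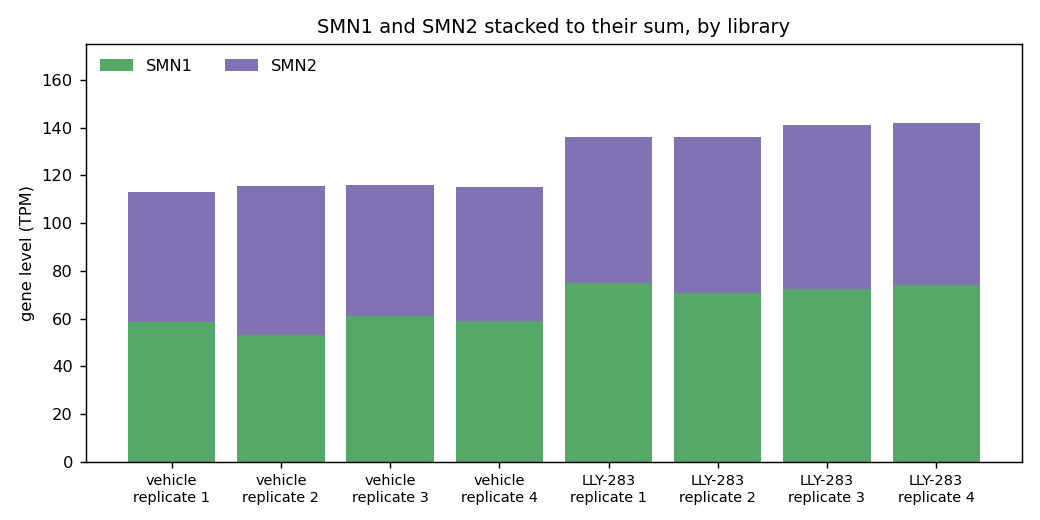
SMN1 (green) and SMN2 (purple) levels stacked to their sum in TPM (vertical axis, starting at 0) for each of the 8 libraries. The 4 LLY-283 columns reach 135.92 to 141.96 TPM and the 4 vehicle columns 112.83 to 115.75 TPM, while the boundary between the genes moves from library to library.

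The other 5 genes listed for the duplicated stretch of chromosome 5 that holds SMN1 and SMN2 were not called by limma as reported, against 26.2% of all genes tested, and 1 of them had an unadjusted p under 0.05. SERF1A and SERF1B, neighbours that are also near-identical copies, had coefficients of variation of 34.3% and 35.2% in the vehicle libraries, and their sum had 5.18%. That sum ranged from 49.00 to 54.25 TPM with vehicle and from 48.10 to 49.29 TPM with LLY-283. GTF2H2, a subunit of the transcription and repair factor TFIIH, had means of 9.91 and 11.8 TPM without overlap of the groups and was not called (log2FC 0.26, adjusted p = 0.0528, limma). It was called in 6 of the 21 alternative fits, among them those with quantile normalization, with median-of-ratios scaling and with the dependence on GC content and length taken out (smallest adjusted p = 0.00940). GTF2H2C (log2FC -0.05) and NAIP (log2FC -0.16) were called in none of them, and the median log2FC of the 5 genes was -0.05. Reads that fit both GTF2H2 and GTF2H2C would also be divided by RSEM, and the sum of these genes was not tested. The long noncoding genes that lie opposite to SMN1 and SMN2 in the annotation, ENSG00000285204 and ENSG00000285151, were listed at 0 in all 8 libraries.

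DDX20 encodes the DEAD-box helicase of the complex, a protein that binds SMN directly and GEMIN4. The gene (ENSG00000064703) lies on the plus strand of chromosome 1 at 111754832 to 111775602. It stood at 22.09, 22.31, 22.35 and 21.91 TPM with vehicle and at 27.53, 26.73, 27.83 and 24.58 TPM with LLY-283. The vehicle values were tight and every LLY-283 value was above them, with LLY-283 replicate 4, the library with the lower mitochondrial share, the closest. The log2FC was 0.26, with a standard error of 0.045 (adjusted p = 0.00285, limma), and without LLY-283 replicate 4 it was 0.30. DDX20 overlaps INKA2 on the opposite strand, which was not called (log2FC -0.15, adjusted p = 0.0559, limma), and KCND3, which stayed at or under 0.05 TPM.

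GEMIN4, the partner of DDX20, was not called. It had 28.37, 29.48, 28.72 and 29.00 TPM with vehicle and 29.44, 29.22, 29.93 and 32.10 TPM with LLY-283, where replicate 4 was the highest. Its log2FC was 0.06 (adjusted p = 0.283, limma), with a 95% interval of the fold from 0.981 to 1.11. With the dependence on GC content and length taken out it was called (log2FC 0.13, adjusted p = 0.0488), but not when the replicate block was added (adjusted p = 0.0875). The ratio of DDX20 to GEMIN4 was 0.76 to 0.78 in the vehicle libraries and 0.94, 0.91, 0.93 and 0.77 in LLY-283 replicates 1 to 4, so that replicate 4 fell within the vehicle range. GEMIN4 (ENSG00000179409) lies on chromosome 17 at 744421 to 753999, on the minus strand.

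GEMIN6 and GEMIN7 encode small proteins with an Sm-like fold that pair with each other inside the complex, and both fell. GEMIN6 (ENSG00000152147, chromosome 2, 38751534 to 38785002, plus strand) had 23.84, 22.62, 24.00 and 26.18 TPM with vehicle and 18.89, 19.02, 21.69 and 21.29 TPM with LLY-283. All LLY-283 values lay under all vehicle values. The log2FC was -0.26, with a standard error of 0.063 (adjusted p = 0.0157, limma), a fall to 0.837 of the vehicle level.

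GEMIN7 (ENSG00000142252, chromosome 19, 45079195 to 45091518, plus strand) had 28.46, 26.91, 27.72 and 26.96 TPM with vehicle and 25.80, 25.14, 22.53 and 23.44 TPM with LLY-283, again without overlap. The log2FC was -0.18, with a standard error of 0.049 (adjusted p = 0.0228, limma). The call of GEMIN7 was lost with median-of-ratios scaling (adjusted p = 0.0634), without vehicle replicate 1 or 3 or LLY-283 replicate 3 (adjusted p between 0.0540 and 0.0633), and with the dependence on GC content and length taken out, where the log2FC was -0.08 (adjusted p = 0.277). The call of GEMIN6 held in all 21 alternative fits, with a largest adjusted p of 0.0489. Almost the whole of GEMIN7 lies within MARK4 on the same strand (log2FC 0.18, adjusted p = 0.0918, limma), and GEMIN7-AS1 on the opposite strand had 0.53 to 0.85 TPM in all libraries. The ratio of GEMIN6 to GEMIN7 was 0.84 to 0.97 with vehicle and 0.73 to 0.96 with LLY-283.

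The stretches in front of the RefSeq start sites of DDX20, GEMIN6 and GEMIN7 are shown, since these 3 genes changed without overlap of their groups and are not copies of each other. The 250 bases before the RefSeq start were read for 8 of the 10 members, and SMN1 and SMN2 had no entry. For these 3 genes the RefSeq start lies downstream of the GENCODE gene start given above, so the windows of DDX20 and GEMIN6 lie inside the annotated genes and that of GEMIN7 spans the gene's start. The stretch of each window that no annotated exon covers is printed 5′ to 3′ on the plus strand of GRCh38.p14, at chr1:111755651-111755700 for DDX20, chr2:38777960-38778115 for GEMIN6 and chr19:45079010-45079194 for GEMIN7, with matches to the motifs named after it in capitals.
DDX20: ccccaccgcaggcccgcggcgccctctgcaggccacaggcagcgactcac
GEMIN6: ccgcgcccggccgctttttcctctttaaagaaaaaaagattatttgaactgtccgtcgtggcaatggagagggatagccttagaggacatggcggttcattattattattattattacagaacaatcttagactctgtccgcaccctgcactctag
GEMIN7: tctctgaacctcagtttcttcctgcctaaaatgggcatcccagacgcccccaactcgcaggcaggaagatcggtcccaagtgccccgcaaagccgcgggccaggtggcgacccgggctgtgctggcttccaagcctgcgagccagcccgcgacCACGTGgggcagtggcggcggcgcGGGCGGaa

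The windows were searched on both strands for the GC box (GGGCGG), the CCAAT box (CCAAT), the TATA box (TATAAA), the E-box (CACGTG), the cAMP response element (TGACGTCA), the ETS core (CCGGAAG), an NRF1 core (GCATGCGC) and a YY1 core (AAGATGGC). In the full 250 bases GEMIN7 held 1 GC box and 1 E-box, DDX20 held 1 CCAAT box outside the stretch printed, and GEMIN6 held none of these letters. Among all 35116 promoters of the same length, 42.6% hold the GC box, 32.0% the CCAAT box and 6.34% the E-box. The remaining motifs, which none of these 3 windows holds, occur in 10.7% (TATA box), 1.65% (cAMP response element), 8.52% (ETS core), 2.63% (NRF1 core) and 1.36% (YY1 core) of promoters. Because GEMIN6 held no motif of this set, it could share none with GEMIN7, the other member that fell. The windows of GEMIN6 and GEMIN7 held 48.8% and 71.6% GC. The window of DDX20 held 59.6% GC.

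GEMIN8, which links the GEMIN6 and GEMIN7 pair to SMN, was not called. Its values were 14.94, 14.84, 14.81 and 14.55 TPM with vehicle and 15.68, 15.17, 13.78 and 15.07 TPM with LLY-283. The log2FC was 0.01 (adjusted p = 0.880, limma), and the 95% interval of the fold ran from 0.935 to 1.09. With quantile normalization and with the dependence on GC content and length taken out it was 0.09, still without a call. GEMIN8 (ENSG00000046647) lies on the X chromosome at 14006726 to 14029893, on the minus strand. Its pseudogene GEMIN8P4 had 2.54 to 5.06 TPM (log2FC -0.10, adjusted p = 0.768, limma), while the other pseudogenes of the gemins in the table did not exceed 0.15 TPM.

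GEMIN2, the subunit that binds SMN and holds the Sm proteins before they close into a ring, was not called. It had 20.57, 19.05, 23.30 and 21.53 TPM with vehicle and 20.60, 20.32, 19.88 and 19.67 TPM with LLY-283. The LLY-283 values lay inside the vehicle range, with a log2FC of -0.07 (adjusted p = 0.451, limma) and a 95% interval of the fold from 0.871 to 1.05. It was -0.02 without vehicle replicate 3 and -0.11 without vehicle replicate 2, not called in either, and the sign turned, still without a call, with the dependence on GC content and length taken out. GEMIN2 (ENSG00000092208) lies on chromosome 14 at 39114285 to 39136973, on the plus strand.

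GEMIN5, which recognises the small nuclear RNA, likewise was not called. It had 14.77, 14.32, 15.61 and 14.44 TPM with vehicle and 15.96, 14.89, 15.19 and 16.71 TPM with LLY-283, with the highest value in replicate 4. The log2FC was 0.08 (adjusted p = 0.262, limma), with a 95% interval of the fold from 0.978 to 1.15. It was 0.16 with quantile normalization (adjusted p = 0.0532) and 0.13 with median-of-ratios scaling, again not called. With the dependence on GC content and length taken out it was 0.15, also without a call. GEMIN5 (ENSG00000082516) lies on chromosome 5 at 154887411 to 154938211, on the minus strand and far from the SMN genes.

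STRAP, a WD-repeat protein that joins the complex in the cytoplasm, was the most abundant member. It had 131.39, 128.43, 136.18 and 124.92 TPM with vehicle and 137.60, 136.18, 137.50 and 141.69 TPM with LLY-283. The lowest LLY-283 value equalled the highest vehicle value. Its log2FC of 0.09 (standard error 0.032) did not pass the adjustment (adjusted p = 0.0735, limma). It was called with median-of-ratios scaling (log2FC 0.13, adjusted p = 0.0158), without vehicle replicate 3 (log2FC 0.11, adjusted p = 0.0342) and with the dependence on GC content and length taken out (log2FC 0.18, adjusted p = 0.00462). STRAP (ENSG00000023734) lies on chromosome 12 at 15882387 to 15903478, on the plus strand.

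**Figure D3:**
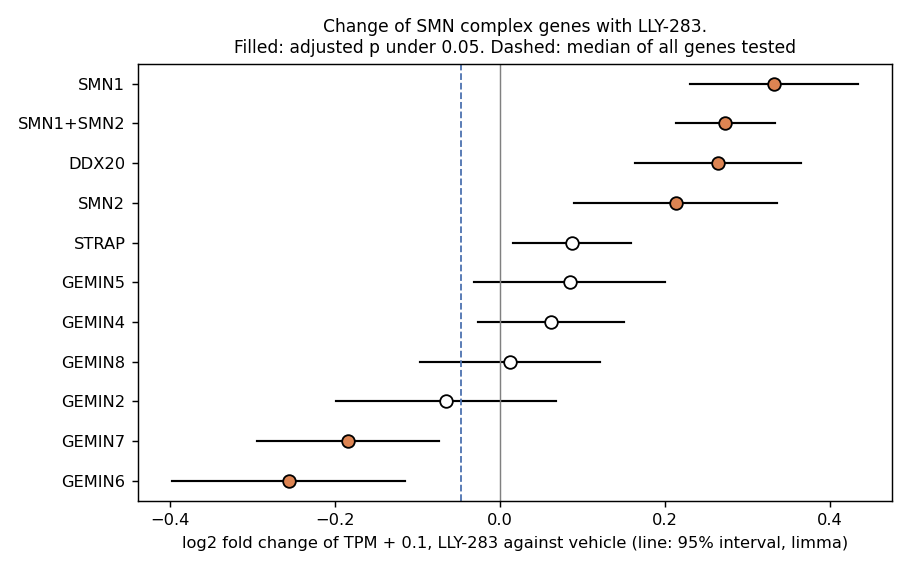
Log2 fold change of TPM + 0.1 between LLY-283 and vehicle (horizontal axis) for the 10 members and the SMN1 and SMN2 sum, with 95% intervals from limma as lines and called genes filled. SMN1, SMN2, their sum and DDX20 lie to the right of 0, GEMIN6 and GEMIN7 to the left, and the dashed line marks the median of all genes tested at -0.05.

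The members differed more in level than in response. In vehicle-treated cells the order of mean levels was STRAP (130.2 TPM), SMN1 (58.0 TPM), SMN2 (56.8 TPM), GEMIN4 (28.9 TPM), GEMIN7 (27.5 TPM), GEMIN6 (24.2 TPM), DDX20 (22.2 TPM), GEMIN2 (21.1 TPM), and GEMIN5 and GEMIN8 (both 14.8 TPM). The ranges of the vehicle libraries overlapped between the neighbours SMN1 and SMN2, GEMIN4 and GEMIN7, DDX20 and GEMIN2, and GEMIN5 and GEMIN8, and did not overlap between the other neighbours. With LLY-283, DDX20 moved ahead of GEMIN7 and GEMIN6 in mean level, although its range overlapped that of GEMIN7, and GEMIN6 and GEMIN2, whose ranges overlapped, became neighbours. The SMN1 and SMN2 sum, at 114.8 TPM, lay at percentile 90.2 of the genes tested, and GEMIN5 and GEMIN8 lay at percentile 45.5.

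Because some members rose while others fell, the proportions among the transcripts changed. The SMN1 and SMN2 sum was 4.76 ± 0.30 times the GEMIN6 level with vehicle and 6.88 ± 0.35 times with LLY-283 (SD, n = 4 each). Relative to GEMIN7 it was 4.17 ± 0.15 and 5.75 ± 0.48 times, and relative to GEMIN2 5.46 ± 0.46 and 6.90 ± 0.30 times. For these 3 ratios the groups did not overlap. For GEMIN6 and GEMIN7 this had to follow, since the sum and each gene had separated in opposite directions. Relative to DDX20, which rose as well, the sum was 5.18 ± 0.06 and 5.22 ± 0.38 times, with overlapping groups. The summed level of all 10 members was 398.4 ± 6.87 TPM with vehicle and 429.0 ± 5.77 TPM with LLY-283, and STRAP held 32.7% and 32.2% of it. The ratios were computed after the levels were known and are given without a test.

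Over the 8 libraries, the genes whose log2(TPM + 0.1) followed the SMN1 and SMN2 sum most closely were DDX23 (Pearson r = 0.994), a helicase of the U5 snRNP, ZNF286B (r = 0.993), a zinc finger gene, and MYH9 (r = 0.992), a non-muscle myosin. The 8 points form 2 groups, so these coefficients mostly reflect the difference between the groups, which the 3 genes shared in direction. DDX23 went from 67.5 to 104.7 TPM, ZNF286B from 2.26 to 3.11 TPM and MYH9 from 457.1 to 540.6 TPM. SMNDC1, a splicing factor with a Tudor domain related to that of SMN, was named after its values were seen. It stood at 40.97 ± 1.81 TPM with vehicle and 61.6 ± 4.66 TPM with LLY-283 (mean ± SD of 4 libraries), with log2FC 0.59 (adjusted p = 1.91e-04, limma), which is larger than that of any member.

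The steps before and after the SMN complex were followed in lists written from general knowledge of snRNP assembly, although with earlier results of these data known. The Sm proteins are its cargo. Of the 8 genes, SNRPD1 (log2FC 0.22, adjusted p = 0.0340), SNRPE (0.15, adjusted p = 0.00570) and SNRPF (0.13, adjusted p = 0.0162) rose, SNRPN (-0.18, adjusted p = 0.00427), a paralog of SNRPB, fell, and SNRPB, SNRPD2, SNRPD3 and SNRPG were not called, with log2FCs of 0.12, 0.10, 0.09 and 0.02. For SNRPD1 the levels were 176.55, 162.96, 179.52 and 172.39 TPM with vehicle and 198.53, 191.70, 185.99 and 232.61 TPM with LLY-283, the highest again in replicate 4. Over these 8 genes the median log2FC was 0.11, and the 3 higher and 1 lower calls stand beside 8.61% and 17.6% of all genes tested. With the dependence on GC content and length taken out, 6 of the 8 were called as higher and 0 as lower, beside 19.4% and 11.4% of all genes. The call of SNRPD1 was lost when any single vehicle replicate was left out, without LLY-283 replicate 1, with no filter on low values and with eBayes without a trend, whereas SNRPE and SNRPF were called in all 21 alternative fits.

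The methylosome is the PRMT5 complex that methylates Sm proteins and hands them on. Of 6 genes, its subunits and adaptors together with PRMT7, 1 was called as reported, against 26.2% of all genes tested. This was RIOK1, an adaptor that brings substrates to PRMT5, with 15.77, 14.79, 14.41 and 13.98 TPM with vehicle and 17.03, 16.07, 17.00 and 16.38 TPM with LLY-283 (log2FC 0.17, adjusted p = 0.0287, limma). PRMT5 (log2FC 0.01), its partner WDR77 (-0.10, adjusted p = 0.0615), the Sm chaperone CLNS1A (0.06), COPRS (0.04) and PRMT7, another arginine methyltransferase (0.14), were not called. WDR77 was called as lower with the mitochondrial genes left out and without LLY-283 replicate 4. PRMT7 was called in 5 of the 21 alternative fits. The call of RIOK1 was lost without vehicle replicate 2, 3 or 4, without LLY-283 replicate 1 or 3 and with no filter on low values. With the dependence on GC content and length taken out, 3 of the 6 were called as higher, beside 19.4% of all genes.

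None of the 7 genes for export of small nuclear RNA, trimethylation of its cap and import of the finished particle was called by limma as reported, against 26.2% of all genes tested, and 2 had an unadjusted p under 0.05. With median-of-ratios scaling and with the dependence on GC content and length taken out, 3 of the 7 were called as higher, beside 13.3% and 19.4% of all genes. With quantile normalization 1 was, beside 12.9% of all genes. As reported, their log2FCs lay between -0.08 for SNUPN, the import adaptor snurportin, and 0.13 for PHAX, the export adaptor. XPO1 (-0.05), KPNB1 (0.06), NCBP1 (0.06), NCBP2 (-0.02) and TGS1, the cap methyltransferase (0.10), lay between them. LSM10 (-0.09, adjusted p = 0.0614) and LSM11 (-0.01), Sm-like proteins that the SMN complex loads onto U7 RNA in place of the products of SNRPD1 and SNRPD2, were not called, although LSM10 was in 3 of the 21 alternative fits.

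The Cajal body list held the largest changes of the pathway. All 8 genes had a log2FC above 0, as did 39.8% of all genes tested, and 5 of them were called as higher, against the 8.61% given above. The median log2FC of the list was 0.24, against -0.05 over all genes. The same count of 5 higher calls was found with quantile normalization, median-of-ratios scaling and the dependence on GC content and length taken out, where 12.9%, 13.3% and 19.4% of all genes were called as higher and 53.3%, 49.5% and 56.3% had a log2FC above 0. The call of COIL was lost with no filter on low values and without vehicle replicate 1, 2 or 4 or LLY-283 replicate 1, 3 or 4, while USPL1, WRAP53, SART3 and ICE1 were called in all 21 alternative fits. USPL1, a protein needed for Cajal body integrity, went from 8.42 ± 0.350 to 12.2 ± 1.01 TPM (mean ± SD of 4 libraries; log2FC 0.52, adjusted p = 7.92e-04). WRAP53, which directs small Cajal body RNAs and telomerase RNA, went from 29.3 ± 1.39 to 40.0 ± 1.14 TPM (0.45, adjusted p = 1.52e-04), and SART3, the factor that recycles U4/U6 particles, from 47.2 ± 0.912 to 61.1 ± 0.300 TPM (0.37, adjusted p = 5.30e-05). ICE1, a scaffold of the elongation complex that serves small nuclear RNA genes, rose by 0.28 on the log2 scale and COIL, the coilin protein that marks Cajal bodies, by 0.20 (adjusted p = 0.00306 and 0.0337, limma). ZPR1 (0.15), ELL (0.08) and ZNF473 (0.06) were not called.

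Among 19 genes of Integrator and SNAPc, which make and trim the small nuclear RNAs, 2 rose, 2 fell and 15 were not called, and the median log2FC was 0.00. With quantile normalization, median-of-ratios scaling and the dependence on GC content and length taken out, 5, 6 and 7 were called as higher. Of all genes, 12.9%, 13.3% and 19.4% were called as higher there. In each of these fits 1 was called as lower, beside 12.6%, 12.9% and 11.4% of all genes. The smallest p-value among the rises was that of INTS11, the endonuclease of Integrator (log2FC 0.17, adjusted p = 0.00519), and among the falls that of SNAPC5 (-0.34, adjusted p = 9.74e-04), which went from 72.8 ± 4.25 to 57.6 ± 2.04 TPM (SD, n = 4 each). The other rise, INTS13 (0.16, adjusted p = 0.0382, limma), was called in 12 of the 21 alternative fits. The other fall, INTS10 (-0.15, adjusted p = 0.0487, limma), was called in 6 of them. Both calls were lost with the replicate block. In the 6 lists of the pathway 14 of 50 genes were called, or 28%, against 26.2% of all genes tested. These shares lay further apart under other scalings, at 42.0% against 25.5% with quantile normalization, 46.0% against 26.2% with median-of-ratios scaling and 50% against 30.7% with the dependence on GC content and length taken out.

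**Figure D4:**
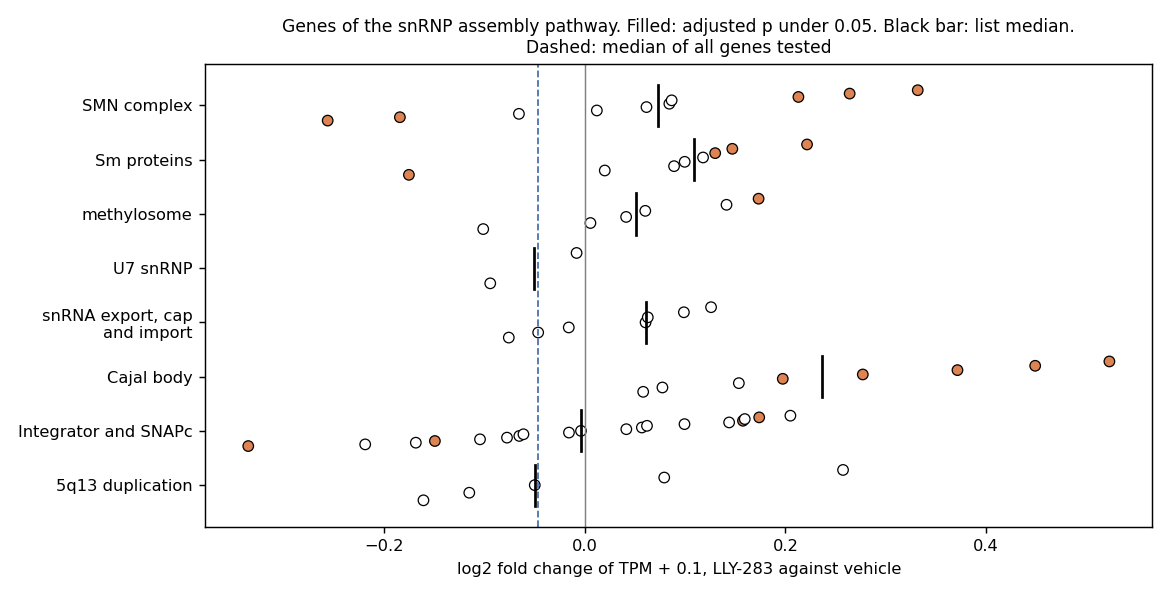
Log2 fold change of TPM + 0.1 between LLY-283 and vehicle (horizontal axis) for each gene of the SMN complex and of 7 lists of the snRNP assembly pathway and its genomic neighbourhood (rows), with called genes filled and list medians as black bars. The Cajal body genes all lie to the right of 0 with a median of 0.24, the export and import genes are all open circles, and the SMN complex has called genes on both sides.

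**Figure D5:**
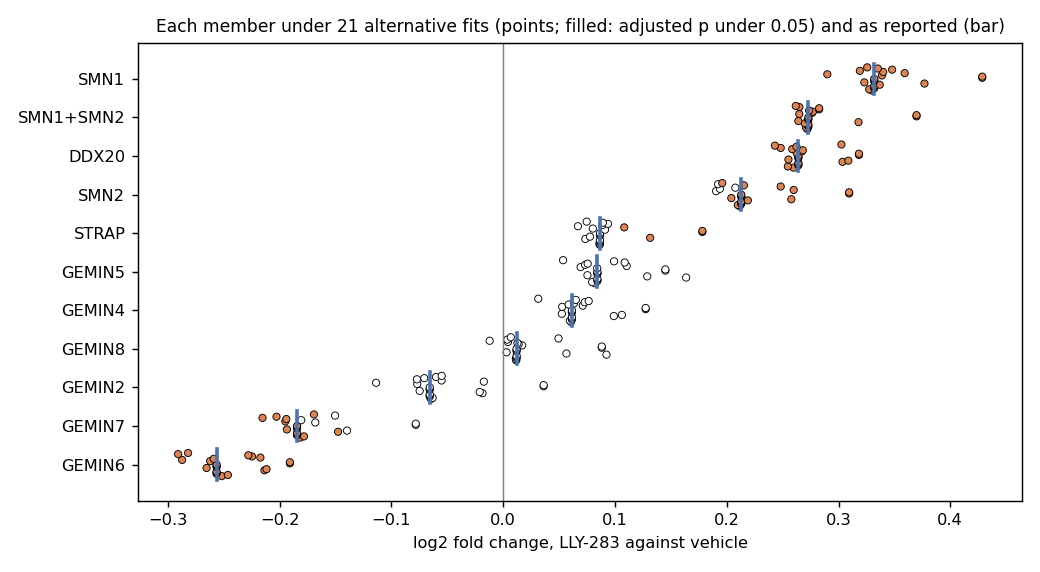
Log2 fold change of each member and of the SMN1 and SMN2 sum (horizontal axis) in 21 alternative fits (points, filled where the adjusted p-value was under 0.05) and as reported (blue bar). SMN1, the sum, DDX20 and GEMIN6 are filled throughout, SMN2 and GEMIN7 hold open points, and GEMIN2 and GEMIN8 have points on both sides of 0.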

How the data were processed

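Poly(A) RNA from 8 U251 cultures was sequenced. Per the labels, the authors trimmed adapters with cutadapt 1.18, mapped reads with STAR 2.7.0f to hg38 and estimated expression with RSEM 1.3.1 (the methods name later STAR and RSEM versions), and deposited TPM values per gene and library. RSEM divides reads that fit several genes, so near-identical genes such as SMN1 and SMN2 are uncertain singly. The strandedness of the counting is not given in the sources used here.

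From the TPM values, log2(TPM + 0.1) of 14478 genes averaging 1 TPM or more was fitted with limma 3.58.1 (R 4.3.3, eBayes with a trend, no replicate block, two-sided, Benjamini-Hochberg adjustment). The SMN1 and SMN2 sum replaced both genes in a second fit of the whole table. A call needs an adjusted p-value under 0.05; 1.5-fold was a stricter rule. The script was tested on simulated data. Alternatives were pseudocounts, filters, scalings, eBayes forms, a replicate block, removal of trends on GC content and length (splines, 4 degrees of freedom, 14457 genes) and each library left out. Genes named were the members, genes sharing their symbol or position, all genes of lists of up to 8 genes, and the 3 genes most like the sum. Genes of the longer list were named when called as reported or with the replicate block. SMNDC1 was added after seeing values. Members and lists were chosen with earlier results of these data known. Positions are from GENCODE 44 on GRCh38, promoters from RefSeq (GRCh38.p14).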

Additional observations from a re-analysis of the deposited data

Results flagged for a closer look

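In each group of 4 libraries, a sample far from the other 3 was looked for in 136 sets of values, 22 of them from the members and the SMN1 and SMN2 sum, and chance alone marks about 1 in 20 sets. No set of the members was marked, and 4 others were. LLY-283 replicate 4 had 7.19% of its TPM in mitochondrial genes, against 10.61% to 11% in the other LLY-283 libraries. COIL stood at 15.03 TPM in LLY-283 replicate 2, against 16.72 to 16.91 TPM in the others. ICE1 stood at 26.32 TPM in LLY-283 replicate 4, against 28.65 to 28.91 TPM. SERF1B was listed at 34.30 TPM in vehicle replicate 1, against 17.73 to 20 TPM, in the library where its copy SERF1A was listed lowest.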

How the results depend on the processing

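The rise of the SMN1 and SMN2 sum was called in all 21 alternative fits, with log2 fold changes (log2FC) of 0.26 to 0.37 (adjusted p at most 0.00346), and SMN1, DDX20 and GEMIN6 were likewise called in all 21. SMN2 was called in 17 and GEMIN7 in 15. The number of members called was 2 at an adjusted p-value under 0.01 and 0 when a 1.5-fold change was also required, and it lay between 3 and 5 with each library left out, with 2 to 3 higher and 1 to 2 lower. The members called as lower became 1 with median-of-ratios scaling and with the trend on GC content and length removed, without and with the block. In these fits 12.9%, 11.4% and 9.5% of all genes were called as lower. The members called as higher became 5 with that trend removed alone, where 19.4% of all genes were called as higher. There GEMIN2 turned to 0.0362 (adjusted p = 0.619; 0.640 with the block), and GEMIN4 was called (0.13, adjusted p = 0.0488; 0.0875 with the block). Without LLY-283 replicate 1, GEMIN8 turned to -0.0121 (adjusted p = 0.887), and its highest value with a library left out was 0.0495. The number of genes called in the pathway lists and among the SMN1 and SMN2 neighbours, 14 of 55, became 9 with no filter on low values, 22 with quantile normalization, 24 with median-of-ratios scaling, 26 with the GC content and length trend removed and 22 with that removal and the block, where 9.4%, 25.5%, 26.2%, 30.7% and 25.3% of all genes were called. With each library left out it was 10 to 15, or 18.2% to 27.3%, where 19.2% to 28.8% of all genes were called. The share of higher genes among all calls was 32.9%, and 50.7%, 50.8% and 63.0% under quantile normalization, median-of-ratios scaling and the removal of that trend. The cause of these shifts was not tested. The difference in the SMN2 share lay between -2.86 and -0.52 points with each library left out. Samples with the same replicate number did not deviate together (correlations of -0.085 to 0.032). With the replicate block the sum kept a log2 fold change of 0.27 (adjusted p = 0.00274) and 5 members were called, beside 22.8% of all genes. Under this block SNRPB, SNAPC4 and GTF2H2 gained a call, and INTS10 and INTS13 lost theirs. Depth limits cannot be given from TPM.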
